A study of Drosophila melanogaster with 3 samples.

Results

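The vacuolar proton pump (V-ATPase) genes described here are 10 Drosophila melanogaster genes that encode subunits of the enzyme, out of 13945 protein-coding and 18164 annotated genes. Vha68-1, Vha68-2, Vha55, Vha44, Vha26, Vha13 and VhaSFD encode parts of the V1 sector, and Vha100-2, Vha16-1 and VhaAC39-1 encode parts of the Vo sector. The 10 genes were chosen by name, with the promoter summits and signal ranks of these same peak lists in view, so their share of bound promoters and their ranks are a description and carry no test. The measurements are chromatin immunoprecipitation sequencing (ChIP-seq) peaks of CG8089, precipitated through a GFP tag at its C-terminal end with an anti-GFP antibody. All libraries came from 1 group, whole embryos of 0 to 24 hours and of both sexes from a transgenic line stably making the fusion, with 3 biological replicates numbered 2, 3 and 4. There was no other genotype, stage or treatment to compare, and whole embryos do not show which cells carry a peak. The line also has the label of an insertion targeting CG8089 at a site the sources do not name.

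The V-ATPase is a rotary pump. Its V1 sector, in the cytosol, hydrolyses ATP and turns a rotor, and its Vo sector, in the membrane, carries protons across as the rotor turns. It acidifies lysosomes, endosomes and secretory vesicles in all animal cells, and in insect epithelia such as the Malpighian tubule it also lies in the plasma membrane and drives ion transport. In the fly several subunits are encoded by more than 1 gene, with copies that differ in where they are expressed.

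A gene was taken as bound when a summit of the authors' reproducible list, their pooled peaks that passed the irreproducible discovery rate (IDR) step, was at most 500 bp from any transcription start site (TSS) of the gene. That list held 3233 peaks and equalled the 3233 strongest of 30000 peaks in the pooled list. The pooled list was deposited as peaks and background given to the IDR step, so its weaker entries can be background. Each replicate also had a list of 30000 peaks. Strength is the authors' signal value, whose scale is not given, so peaks are compared by rank within a list, rank 1 being the strongest. Read depth is unknown. The deposited file descriptions name the same further file as an input of the pooled and replicate calls. It was taken to be the control, since the authors' control-normalized tracks name it too, and it was not analysed here.

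The sequences under the summits are shown for the 4 bound listed genes where a stretch around the summit could be printed, and for Vha26, which had a weaker summit. They run 5′ to 3′ on the strand of the gene (dm6, RefSeq Release 6 sequence). Capitals mark matches, on either strand, to the words searched for below.

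Vha68-1 (chr2L:13004087-13004287, minus strand): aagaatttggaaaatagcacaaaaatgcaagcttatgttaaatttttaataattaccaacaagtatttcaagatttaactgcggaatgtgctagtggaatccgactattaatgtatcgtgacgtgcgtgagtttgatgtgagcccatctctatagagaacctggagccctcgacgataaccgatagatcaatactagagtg

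Vha68-2 (chr2L:12974096-12974296, plus strand): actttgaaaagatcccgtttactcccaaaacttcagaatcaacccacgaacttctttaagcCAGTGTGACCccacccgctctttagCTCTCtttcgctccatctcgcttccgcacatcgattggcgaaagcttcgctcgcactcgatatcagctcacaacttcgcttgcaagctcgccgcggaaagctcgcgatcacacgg

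Vha55 (chr3R:12627800-12627966, minus strand): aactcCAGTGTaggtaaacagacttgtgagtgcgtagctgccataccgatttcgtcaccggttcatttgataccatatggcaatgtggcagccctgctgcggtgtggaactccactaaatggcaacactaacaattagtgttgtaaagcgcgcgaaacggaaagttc

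Vha13 (chr3R:19644364-19644564, minus strand): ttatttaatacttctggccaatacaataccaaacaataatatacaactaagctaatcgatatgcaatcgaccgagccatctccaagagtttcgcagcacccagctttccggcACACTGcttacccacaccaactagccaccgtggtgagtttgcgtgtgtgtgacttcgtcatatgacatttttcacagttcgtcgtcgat

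Vha26 (chr3R:5591430-5591585, plus strand): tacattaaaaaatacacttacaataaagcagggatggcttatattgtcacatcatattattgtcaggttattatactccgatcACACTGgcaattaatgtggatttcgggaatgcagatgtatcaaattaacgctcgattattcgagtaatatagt

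Of the 10 listed genes, 7 were bound and 3 were not. Among all protein-coding genes 14.6% had a reproducible summit within 500 bp of a TSS (2034 of 13945), and since the genes were chosen with these peaks in view nothing is read from the difference. The V1 sector had 5 bound of 7 listed genes and the Vo sector 2 of 3. The bound V1 genes were Vha68-1, Vha68-2, Vha55, Vha44 and Vha13, and the bound Vo genes were Vha100-2 and Vha16-1. Vha26, VhaSFD and VhaAC39-1 had no reproducible summit. In the whole pooled list, weak peaks and background entries included, 9 of the 10 had a summit at a TSS, against 51.7% of protein-coding genes.

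**Figure D1:**
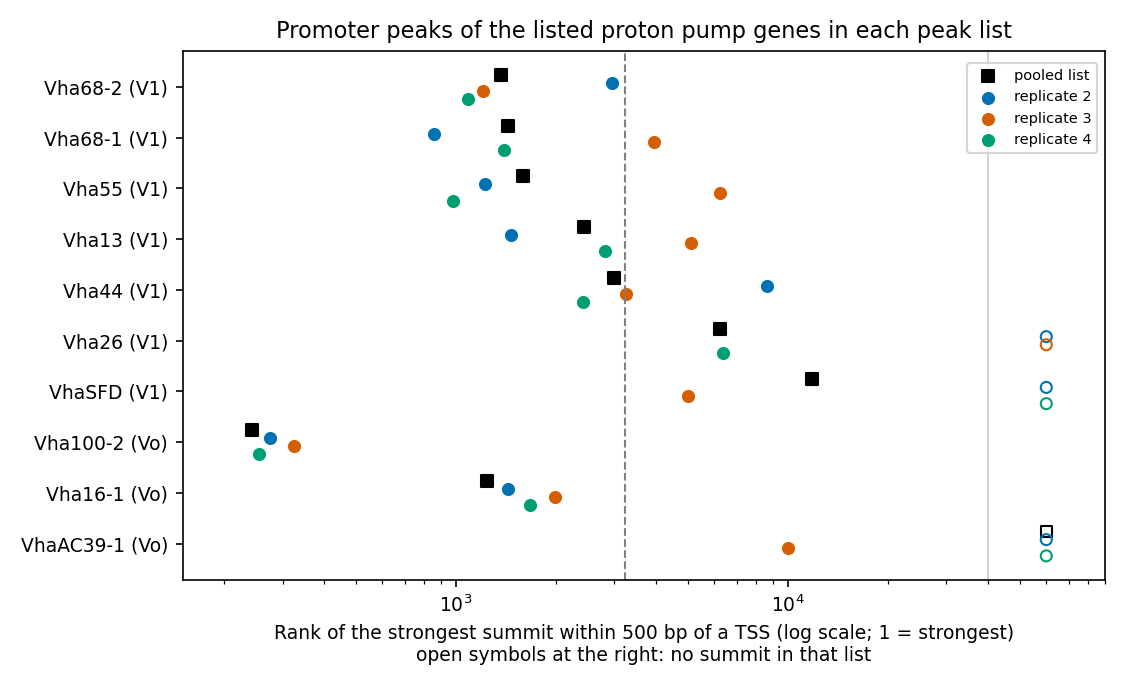
Rank of the strongest summit within 500 bp of a TSS of each listed gene, on a log scale with the strongest at the left, in the pooled list (squares) and in replicates 2, 3 and 4 (circles); the dashed line is rank 3233, and open symbols at the right mark lists with no summit. Vha100-2 lies at ranks 242 to 326 in all 4 lists, while Vha55 spreads between ranks 981 and 6260.

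Among the catalytic V1 genes, both A subunit genes with a peak were bound close to their starts. The A subunit holds the site of ATP hydrolysis. Vha68-2 (FBgn0263598, plus strand, chromosome 2L, 12974322 to 12978607) had its reproducible peak at chr2L:12973998-12974393, with a pooled signal of 193 at rank 1362 and the summit 126 bp upstream of the TSS. Its strongest summit ranked 2947 in replicate 2, 1207 in replicate 3 and 1084 in replicate 4, a mean of 1746 ± 1042 (SD, n = 3). All 3 replicates therefore placed it among their own 3233 strongest peaks, with replicate 2 the weakest.

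Vha68-1 (FBgn0265262, minus strand, chromosome 2L, 13000770 to 13004107) had its reproducible peak at chr2L:13003989-13004384, with a pooled signal of 188 at rank 1433 and the summit 80 bp upstream of its single TSS. It ranked 861 in replicate 2, 3950 in replicate 3 and 1398 in replicate 4 (mean 2070 ± 1650, SD, n = 3). Replicate 3 was outside the strongest 3233. The third A subunit gene, Vha68-3, is not one of the 10; it starts 178 bp beyond the end of Vha68-2 and ends 19476 bp before Vha68-1. Vha68-3 had no summit at its TSS in the pooled list or in any replicate list.

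Vha55 encodes the B subunit, which alternates with A in the V1 ring. The gene (FBgn0005671, minus strand, chromosome 3R, 12623762 to 12627829) had its peak at chr3R:12627668-12628063, with a pooled signal of 177 at rank 1588 and the summit 37 bp upstream of a TSS. It ranked 1224 in replicate 2, 6260 in replicate 3 and 981 in replicate 4 (mean 2822 ± 2980, SD, n = 3). The weakest of its 3 replicate ranks was 6.38 times the strongest, the widest spread among the 7 bound listed genes. Over the 1937 bound protein-coding genes with a summit in all replicates, the median of that ratio was 2.53, with quartiles of 1.74 and 3.98.

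Of the V1 genes outside the catalytic ring, Vha13 and Vha44 were bound and Vha26 and VhaSFD were not. Vha13 encodes the G subunit of the outer stalks (FBgn0283536, minus strand, chromosome 3R, 19643018 to 19644386), and its peak at chr3R:19644266-19644661 had a pooled signal of 138 at rank 2423, with the summit 78 bp upstream of the TSS. It ranked 1464 in replicate 2, 5119 in replicate 3 and 2808 in replicate 4 (mean 3130 ± 1849, SD, n = 3). The summit of replicate 3 lay 58 bp inside the gene, while those of replicates 2 and 4 lay 101 and 39 bp upstream.

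Vha44 encodes the C subunit, which links the stalks to Vo. The gene (FBgn0287825, minus strand, chromosome 2R, 16324813 to 16336637) had the weakest of the 7 peaks, at chr2R:16336498-16336893, with a pooled signal of 121 at rank 2995 and the summit 59 bp upstream of a TSS. Only replicate 4 placed a summit at this gene among its strongest 3233, at rank 2417. Replicate 3 had it at rank 3247, just outside. The strongest summit of replicate 2 ranked 8624 and lay 292 bp upstream of the TSS, outside the reproducible peak.

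Vha26 encodes the E subunit, which pairs with G in the outer stalks, and had a weaker summit only. The gene (FBgn0283535, plus strand, chromosome 3R, 5591763 to 5595356) had a pooled summit 278 bp upstream of its TSS at rank 6259 with a signal of 77.9, and replicate 4 had one 258 bp upstream at rank 6358. Replicates 2 and 3 had no summit within 500 bp. VhaSFD encodes the H subunit, which regulates the pump (FBgn0027779, minus strand, chromosome 2L, 16722883 to 16727826). Its pooled summit lay 81 bp inside the gene at rank 11787 with a signal of 57.1, and replicate 3 alone had a summit there, at rank 4985.

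In the Vo sector, Vha100-2 had the strongest peak of the 10 genes. It encodes a copy of subunit a, which forms the proton path through the membrane together with the c ring. The gene (FBgn0028670, minus strand, chromosome 3R, 18390323 to 18399169) has 2 annotated TSSs, and the peak at chr3R:18397121-18397315 lay 300 bp upstream of the inner one, with a pooled signal of 448 at rank 242. It ranked 275 in replicate 2, 326 in replicate 3 and 254 in replicate 4, a mean of 285 ± 37.0 (SD, n = 3), with signals of 151, 153 and 135 in the same order. These were the closest replicate ranks among the 7 bound listed genes, the weakest being 1.28 times the strongest. The 3 replicate summits lay 312, 300 and 306 bp upstream. At the outer TSS there was a weaker pooled summit, 4 bp upstream at rank 5574, which replicate 3 had at rank 6366, replicate 4 at rank 14737 and replicate 2 not at all. The strong peak was not nearest to Vha100-2: its summit lay in an intron of that gene and in the 5′ UTR of Vti1b, a gene on the opposite strand that encodes a SNARE protein of vesicle fusion, 233 bp from the Vti1b TSS. Its place among the pump genes therefore rests on the 500 bp window, and it falls out with a window of 250 bp.

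The promoter peaks whose 3 replicate ranks were most like those of Vha100-2 were nearest to RpL28, a ribosomal protein gene (ranks 263, 317 and 230 in replicates 2, 3 and 4), CG10479 (ranks 268, 399 and 243) and PAPLA1, a phospholipase gene (ranks 217, 319 and 270). Likeness was the sum of absolute log2 rank ratios over the 3 replicates, which was 0.25 for RpL28, 0.39 for CG10479 and 0.46 for PAPLA1. This is a likeness of peak strength only.

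Vha16-1 encodes the c subunit of the rotating membrane ring. The gene (FBgn0262736, minus strand, chromosome 2R, 6625242 to 6633090) had its promoter peak at chr2R:6633028-6633423, with a pooled signal of 204 at rank 1236 and the summit 136 bp upstream of the outer TSS. It ranked 1430 in replicate 2, 1984 in replicate 3 and 1668 in replicate 4 (mean 1694 ± 278, SD, n = 3), so all replicates held it within their strongest 3233. Vha16-1 was the only one of the 10 genes with a second reproducible peak inside it, an intronic summit 1717 bp from the nearest TSS at rank 1703. VhaAC39-1 encodes subunit d, which couples the rotor of V1 to the c ring. The gene (FBgn0285910, plus strand, chromosome X, 3880748 to 3882967) was alone among the 10 in having no pooled summit within 500 bp of a TSS, and it had a single summit in replicate 3, 124 bp inside the gene at rank 10034.

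The limits used to call a gene bound were a distance of 500 bp and the reproducible list of 3233 peaks. Of the bound genes, Vha100-2 lay farthest from a TSS (300 bp) and Vha44 had the weakest rank (2995 of 3233). Of the genes not bound, the nearest reproducible summit was 6995 bp away for VhaSFD, 12108 bp for VhaAC39-1 and 14890 bp for Vha26. The strongest pooled summit among those 3 genes was that of Vha26, at rank 6259.

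The replicates were then read one by one. Among the 3233 strongest peaks of replicate 2, 6 of the 10 listed genes had a summit at a TSS, against 14.9% of protein-coding genes. Replicate 4 had 7, against 14.0%, and replicate 3 had 3, against 13.7%. The 3 genes found in replicate 3 were Vha68-2, Vha100-2 and Vha16-1, and these were also the 3 found by every replicate. Over whole lists the listed genes counted 7 in replicate 2, 9 in replicate 3 and 8 in replicate 4, against 41.3%, 54.3% and 48.6% of protein-coding genes. Replicate 3 thus had summits below that cut at 6 further listed genes, from rank 3247 at Vha44 to rank 10034 at VhaAC39-1. Replicate 3 gave the weakest rank for 5 of the 7 bound listed genes (all but Vha68-2 and Vha44), and for 49.6% of the 1937 bound protein-coding genes with a summit in each replicate. Whether these differences come from the embryos or from the libraries was not tested.

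**Figure D2:**
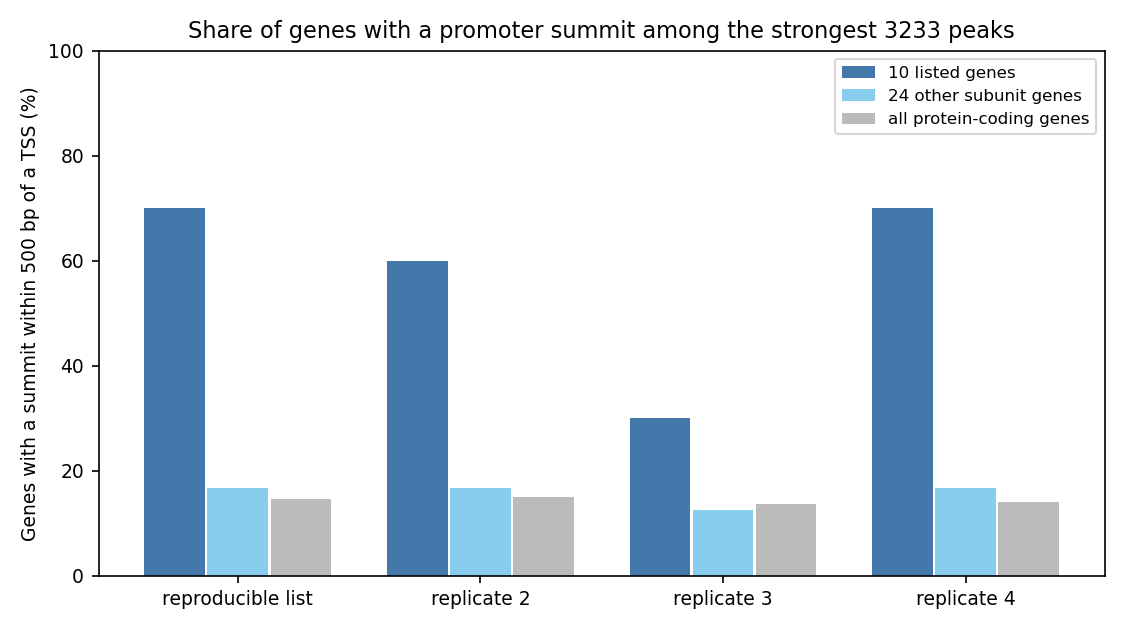
Percentage of genes with a summit within 500 bp of a TSS, for the 10 listed genes, the 24 other subunit genes and all protein-coding genes, in the reproducible list and among the 3233 strongest peaks of each replicate. The listed genes stand at 7, 6, 3 and 7 of 10 in the reproducible list and replicates 2, 3 and 4, and the other subunit genes at 4, 4, 3 and 4 of 24.

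Among reproducible peaks that held a strong summit of both remaining replicates, 6 listed genes were left without replicate 3, but 3 without replicate 2 and 3 without replicate 4. The shares of protein-coding genes in those lists were 10.4% without replicate 3, 9.08% without replicate 2 and 8.83% without replicate 4. Vha68-2, Vha100-2 and Vha16-1 were kept in each list, Vha68-1, Vha55 and Vha13 only without replicate 3, and Vha44 in none of them.

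All 7 reproducible summits of the listed genes lay upstream of the gene's own nearest TSS. Measured from the nearest TSS of any protein-coding gene, 6 of the 7 were upstream, since the Vha100-2 summit lay 233 bp downstream of the Vti1b TSS. The median distance from the gene's own TSS was 80 bp, with a range of 37 to 300 bp. Over the 1597 reproducible promoter summits with a protein-coding TSS in the window, 78.0% were upstream of the nearest one, with a median of 71 bp upstream and quartiles of 161 and 10 bp upstream. In the replicates the strongest summits of the 7 genes were also upstream, apart from that of Vha13 in replicate 3. Weaker second summits lay 93 bp downstream of an inner TSS of Vha68-2 (pooled rank 14793) and 15 bp downstream of the inner TSS of Vha16-1 (pooled rank 9387).

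**Figure D3:**
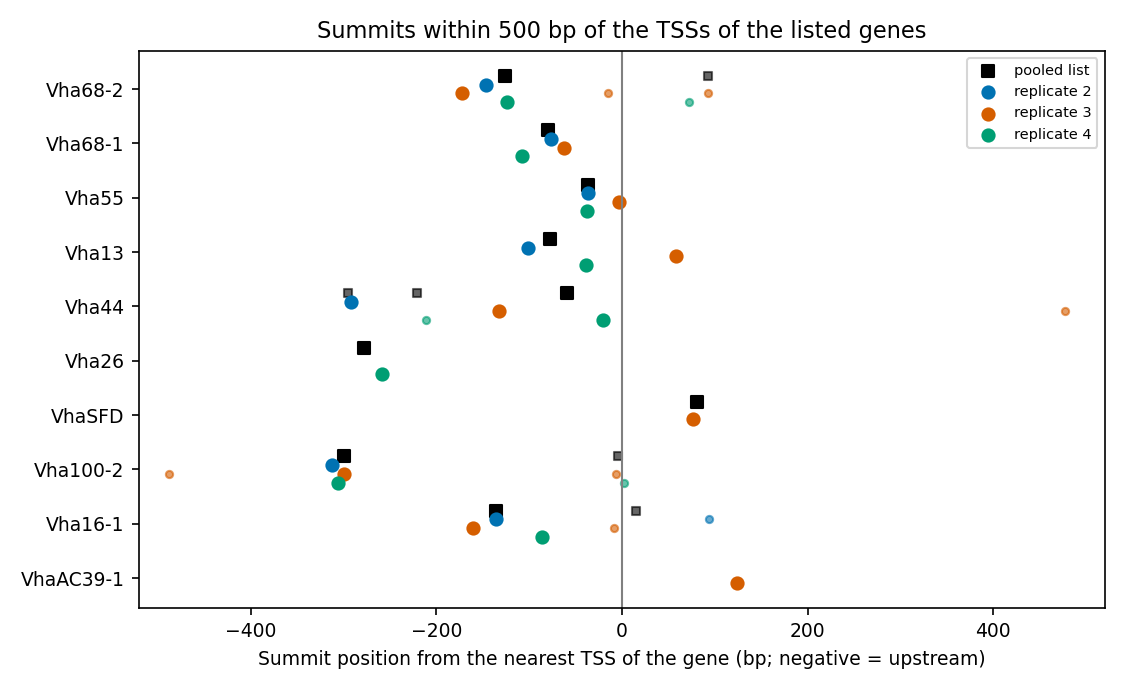
Position of every summit within 500 bp of a TSS of the listed genes, in bp from the nearest TSS of the gene with upstream to the left; large symbols are the strongest summit in a list, small ones weaker summits, squares the pooled list and circles the replicates. The large pooled squares of the 7 bound genes lie 37 to 300 bp upstream, and those of Vha26 and VhaSFD 278 bp upstream and 81 bp inside.

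Genes with several start sites have more windows in which a summit can fall. Of the 5 listed genes with 2 or more distinct TSSs (Vha68-2, Vha55, Vha44, Vha100-2 and Vha16-1) all 5 were bound, and of the 5 with a single TSS 2 were (Vha68-1 and Vha13). Among all protein-coding genes 25.4% of those with 2 or more TSSs and 10.7% of those with 1 were bound. The part of TSS number in the listed genes' count was not tested.

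Of the 7 peaks, 4 were at shared promoters, with a TSS of another gene within 500 bp of the summit. The sharing genes were all protein-coding and on the opposite strand. Over the reproducible peaks at protein-coding promoters, 35.3% had TSSs of more than 1 protein-coding gene (563 of 1597). The Vha68-1 summit lay 293 bp upstream of mTor, the kinase of the TOR growth pathway, and 80 bp upstream of Vha68-1. The Vha55 summit lay 165 bp upstream of Snx3, a sorting nexin of endosomes, and the Vha44 summit 64 bp upstream of a TSS of Hmgs, an enzyme of the mevalonate pathway whose 5′ UTR covers it. Vti1b at Vha100-2 was the fourth. Vha68-2, Vha13 and Vha16-1 had the promoter to themselves. The own TSS was the nearest of all annotated TSSs in 6 of the 7, all but Vha100-2. A ChIP-seq peak between divergent genes cannot be assigned to either of them.

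The letters under the summits were searched for 5 words within 100 bp of the summit, on both strands. The word ACACTG was under 4 of the 7 summits (Vha68-2, Vha55, Vha44 and Vha13), against 21.8% of all 1701 reproducible promoter summits and 14.2% of 201 bp windows at protein-coding TSSs. At Vha44 and Vha13 it lay close to the summit, 2 and 14 bp away, and at Vha68-2 and Vha55 36 and 92 bp away. The ACACTG match of Vha68-2 overlaps the only match to GGTCACACT, the core of the Motif 1 element of fly housekeeping promoters, which was under 3.53% of all promoter summits and in 4.43% of TSS windows. Both are within the first run of capitals in its sequence shown above, read on the opposite strand.

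The E-box CACGTG is the core of the element through which Mitf, the fly member of the TFEB family, acts on lysosomal genes. It was under 2 of the 7 summits, 14 bp from the summit at Vha44 and 96 bp from it at Vha55, where it lies 56 bp inside the gene and beyond the stretch printed. Of all promoter summits 2.76% and of TSS windows 2.79% had it. GAGAG, a core of GAGA elements, was under 3 of the 7 (Vha68-2, Vha44 and Vha100-2), against 23.8% and 24.9%. TATCGATA, the DNA replication-related element, was under 0 of the 7, against 7.00% and 6.43%. Vha68-1 and Vha16-1 had no match to any of the 5 words. Vha26, which was not bound, had ACACTG under its pooled summit. GC content within 100 bp of the summit ran from 34.3% at Vha100-2 to 57.2% at Vha44, against a median of 37.8% over all promoter summits. These matches describe the letters and identify no binding site.

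Set beside the other subunit genes, the 10 are part of a family of 34 V-ATPase genes (13 of V1 and 21 of Vo, accessory subunits included). Of the 24 other genes, 4 were bound: Vha36-1, Vha16-5, VhaM9.7-b and VhaM9.7-c. In all, 11 of 34 were bound, 6 of 13 in V1 and 5 of 21 in Vo. These totals include the 10 genes chosen with these peaks in view, so no sector difference is read from them. Outside the 10, the bound genes were 1 of 6 in V1 and 3 of 18 in Vo, 16.7% of each. The 24 others stood at 16.7%, beside 14.6% of all protein-coding genes. All 11 summits were upstream of the gene's own TSS.

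Vha36-1, the D subunit of the V1 rotor, had its summit 31 bp upstream of the TSS at rank 1771, and ranked 2887, 2359 and 1430 in replicates 2, 3 and 4. It shares the promoter with CG8187, 41 bp away. Vha16-5, a further c subunit copy, had a stronger peak (rank 602; ranks 378, 841 and 970 in the replicates), but the summit lay 282 bp upstream of it and 20 bp from the TSS of CG12299. VhaM9.7-b, an e subunit gene, had its summit 385 bp upstream at rank 2112 and 30 bp from the TSS of COX8, a gene for a subunit of cytochrome c oxidase. VhaM9.7-c had its summit 21 bp upstream of its own TSS at rank 2621. Vha16-5 and VhaM9.7-b fall out with a window of 250 bp, as Vha100-2 does.

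**Figure D4:**
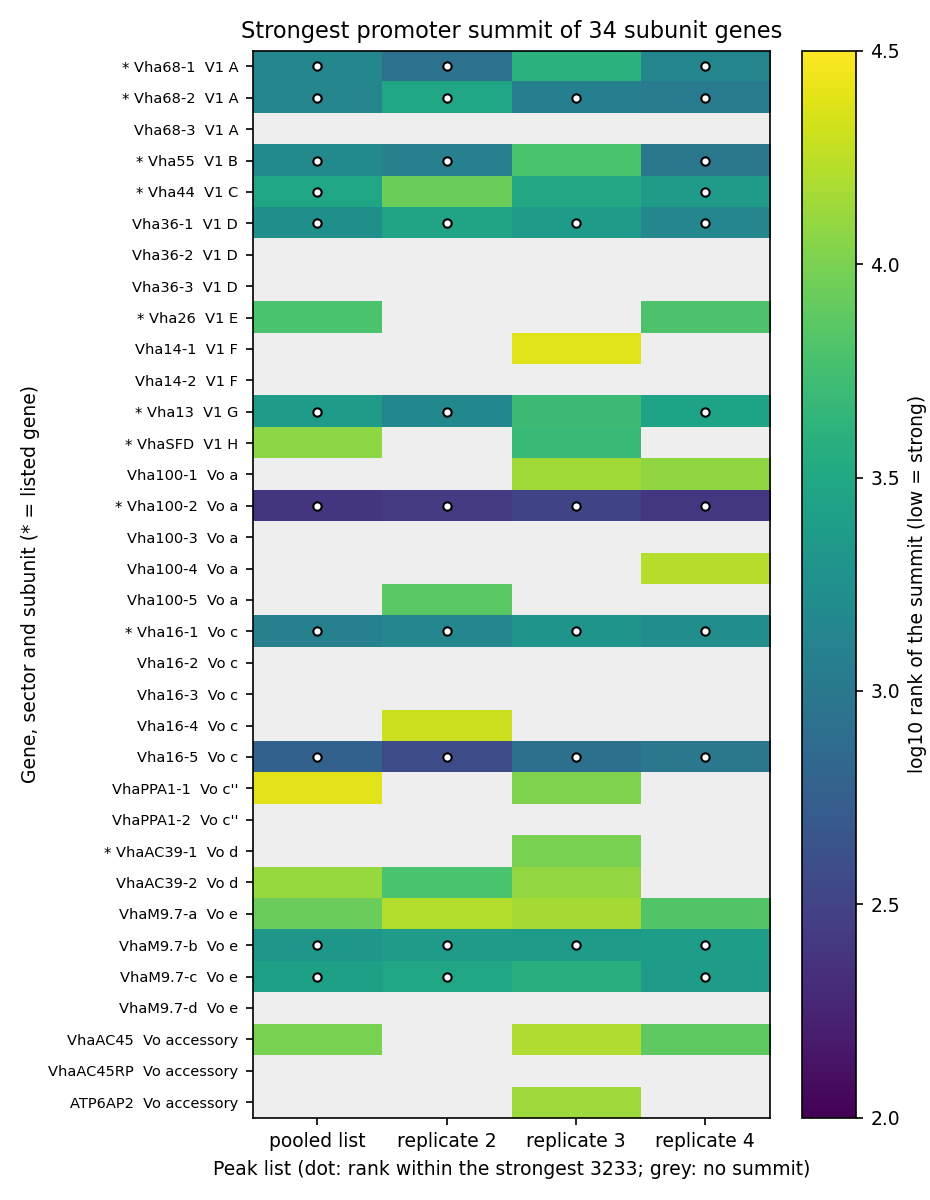
Rank of the strongest summit within 500 bp of a TSS for 34 V-ATPase subunit genes (rows, with sector and subunit; an asterisk marks a listed gene) in the pooled list and the 3 replicate lists, coloured by log10 of the rank with grey for no summit; dots mark ranks within 3233. Of the 34 genes, 11 have a dot in the pooled column, and the copies Vha68-3, Vha36-2, Vha36-3, Vha14-2, Vha100-3, Vha16-2, Vha16-3, VhaPPA1-2, VhaM9.7-d and VhaAC45RP are grey throughout.

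Read by subunit, 8 of 13 subunit types had at least 1 bound gene: A, B, C, D and G of V1, and a, c and e of Vo. For A, B, C, G and a the bound genes were all listed ones, chosen with these peaks in view. Types with several genes also have more chances to hold a bound one, so nothing is read from this count. E, F and H of V1 and c′′ and d of Vo had none. Of the subunits made from a single gene, all of them listed, B, C and G were bound and E and H were not. Of the 5 genes for subunit a only Vha100-2 was bound. Vha100-4 begins 517 bp beyond the 3′ end of Vha100-2 on the same strand, and its TSS lay 7423 bp from the nearest reproducible summit. Subunit c had 2 bound of 5, e had 2 of 4 and D had 1 of 3. Weaker pooled summits were at 6 further genes: the listed Vha26 and VhaSFD, and VhaM9.7-a (rank 8491), VhaAC45 (rank 10041), VhaAC39-2 (rank 12941) and VhaPPA1-1 (rank 24563). Their deposited −log10 q-values in the pooled list ran from 1.21 at Vha26 down to 0.12 at VhaPPA1-1. By these pooled values the entries cannot be told apart from background. VhaSFD had 0.46 in the pooled list but 3.52 in replicate 3, and no summit in replicates 2 and 4. In replicate 3 the strongest summits of the bound listed genes had values from 2.92 at Vha55 to 3.90 at Vha68-1.

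Genes that act on or with the pump were read in the same way. Mitf itself was bound at rank 1801, with the summit in its coding sequence and 69 bp downstream of an inner TSS. Its ranks were 19205, 1322 and 932 in replicates 2, 3 and 4. Rbcn-3A and Rbcn-3B, related to the yeast RAVE complex that assembles the pump, were not bound and had pooled summits at ranks 12088 and 17854. Of 12 lysosome genes, 4 were bound (33.3%, against 14.6% of protein-coding genes): Hexo2 (rank 215), CtsB (rank 1744), Lip4 (rank 1893) and CtsL1 (rank 2843). The list was written with earlier results of these data known, so nothing is read from the difference. The CtsB summit lay 179 bp from the TSS of amrt. The CtsL1 summit lay in an intron of that gene, 487 bp upstream of an inner TSS and 33 bp from the TSS of CG42806. Only replicate 4 had its strongest CtsL1 summit inside that peak.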

How the data were processed

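Peak lists of ChIP-seq against GFP-tagged CG8089 in whole fly embryos were analysed, for 3 replicates and for the authors' pooled and reproducible lists. Per the deposited file descriptions, each replicate list was made from that replicate's alignments and 1 further file, the pooled list from all 3 replicates' alignments and that file, and the reproducible list from these 4. Peak caller, version and IDR threshold: not given in the sources used here. Every entry carries the authors' signal, used for ranks within a list and as a description, and −log10 of a q-value as deposited, which was not used to rank. Fragments were sonicated to 200 to 800 bp, per the labels.

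The lists on build dm6 were used, with Ensembl release 115 TSSs and RefSeq Release 6 sequence, and all peaks ended within its chromosomes. The dm3 lists were not used. Transposable elements were left out. A gene's rank in a list is that of its strongest summit within 500 bp of any TSS. Text names all 10 listed genes, subunit genes with a reproducible or pooled summit, genes sharing a listed promoter, bound genes of the regulator and lysosome lists, and the 3 promoter peaks most like the strongest; others were named after their values were seen. VhaM8.9 was matched as ATP6AP2 by its RefSeq synonym, and CtsD had no match. The members and lists were chosen with earlier results of these data known, and no test was run. Replicates are labelled biological, but peaks are not independent of the pooled list that holds the same reads. The scripts were tested on simulated summits. Alternatives were windows of 250 and 1000 bp, stricter and whole lists, TSS overlap, each replicate left out, the nearest summit, and motif windows of 50 and 150 bp. Python 3.11.15, numpy 2.4.6, pandas 2.3.3 and matplotlib 3.10.9 were used.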

Additional observations from a re-analysis of the deposited data

How the results depend on the processing

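The count of bound listed genes, 7, stayed between 5 and 9 with windows of 250 and 1000 bp, the stronger 1616 peaks, the whole pooled list and TSS overlap, and ran from 3 to 6 when a replicate was left out. Those last lists hold fewer peaks by construction. They keep the reproducible peaks, called with the reads of all 3 replicates, that also held a strong summit of both other replicates. A count without a replicate therefore does not show what a call without its reads would give. The 11 bound of all 34 subunit genes became 8 with a window of 250 bp, 12 with 1000 bp and 8 with TSS overlap. They became 6 in the stronger 1616 peaks and 17 in the whole pooled list. Without a replicate the count was 6 to 10, with 6 when replicate 2 or 4 was left out. The 17 were 50% of the 34 genes, beside 51.7% of all protein-coding genes. Of the 24 other subunit genes 33.3% had a pooled summit. For the strongest peaks of single replicates, replicate 3 went to 9 listed genes over its whole list, and replicate 4 to 4 in the stronger 1616. CACGTG was under 1 of the 7 summits within 50 bp. With the summit nearest to a TSS in place of the strongest, ranks moved for Vha68-2, Vha100-2 and Vha16-1, whose pooled ranks became 14793, 5574 and 9387. No paired analysis was possible because there was 1 group. Read depth is unknown, so a missing summit cannot be told apart from low coverage.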
